A study of Homo sapiens with 18 samples.

Results

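The genes described are 10 targets of p53 with roles in apoptosis: *BAX*, *BBC3*, *PMAIP1*, *FAS*, *TNFRSF10B*, *EDA2R*, *AEN*, *TP53INP1*, *PHLDA3* and *TP53I3*. They were chosen by symbol, with earlier results of these data known, from the 59251 genes of a table of raw counts. All 10 had enough counts to be tested, among 17966 tested genes. Shares over all genes are given beside counts of members as context, and no test was made of the members as a list. RNA-seq of poly(A)-selected RNA had been made from HEK-293T, an established line of human embryonic kidney origin that expresses the SV40 large T antigen. Csy4 is a bacterial CRISPR endoribonuclease that cuts RNA at a short hairpin, and the split form is made in separate parts that a small molecule, the trigger, is meant to bring together. The 18 libraries form 6 groups of 3, and the labels of each give 70000 cells plated. Cells that the labels do not describe as transfected received DMSO (labelled 0.5 µM), rapamycin (an inhibitor of the mTOR kinase, 0.1 µM) or grazoprevir (a hepatitis C protease inhibitor and the trigger, 0.5 µM). Among transfected cells, those with full-length Csy4 were given DMSO, and those with split Csy4 were given either DMSO (untriggered) or grazoprevir (triggered), 6 hours after transfection. No group was labelled as transfected without a Csy4 construct, so transfection, construct and enzyme cannot be told apart wherever transfected cells are compared with untransfected ones. Whether a group's libraries derive from separate cultures is not given in the labels, and p-values then measure only the spread between these libraries.

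The p53 protein is a transcription factor that is held low by the ubiquitin ligase MDM2 and that accumulates under DNA damage, ribosomal stress and other insults. It raises genes that arrest the cell cycle or repair DNA, and genes that prepare cell death through mitochondria or through death receptors. In HEK-293T the large T antigen binds p53, which limits the line as a model of normal p53 signalling. The members fall into pore formers and BH3-only proteins at mitochondria (*BAX*, *BBC3*, *PMAIP1*), receptors of the tumour necrosis factor family (*FAS*, *TNFRSF10B*, *EDA2R*) and effectors with other roles (*AEN*, *TP53INP1*, *PHLDA3*, *TP53I3*).

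Sites like the p53 recognition sequence were looked for in the 250 bases before each start in a set of RefSeq promoters. The search was made because all 10 members were higher with full-length Csy4 than with DMSO. RefSeq promoters on GRCh38.p14 were matched for 7 of the 10 members (*BAX*, *BBC3*, *PMAIP1*, *FAS*, *EDA2R*, *AEN* and *TP53I3*). The p53 consensus is a pair of half-sites of 10 bases, each its own reverse complement, so both strands are covered. A pair with at most 2 mismatches in all and 0 to 13 bases between was present in 2 of the 7, *FAS* and *AEN*, and in 8.12% of 27305 genes. A half-site with no mismatch was present in the same 2 members and in 6.8% of all genes. Adjoining half-sites are shown for these 2 members and for *MDM2*, whose pattern over the libraries was among those most like the members', with the 20 bases of the site in capitals.
FAS: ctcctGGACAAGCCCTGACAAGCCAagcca
AEN: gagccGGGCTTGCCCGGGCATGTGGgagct
MDM2: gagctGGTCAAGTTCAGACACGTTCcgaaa
Each has 2 mismatches and no spacer. *CDKN1A*, another p53 target searched in the same way, had 4 mismatches in its best pair within the 250 bases. Neither it nor *MDM2* held a half-site without a mismatch there. Sequence outside these windows was not searched, so a missing match does not show that a gene lacks a p53 site. The *FAS* stretch is chr10:88991304-88991333, 127 to 98 bases before one of the 3 starts searched for this gene. The *AEN* stretch is chr15:88621301-88621330, 39 to 10 bases before the start searched. The *MDM2* stretch is chr12:68808918-68808947, 99 to 70 bases before one of its internal starts. All are on the plus strand. The starts searched for *FAS* and *AEN* also lie inside the genes. Their RefSeq spans begin at chr10:88964050 and chr15:88604683, and those outer starts were not searched. In GENCODE 29 the *FAS* and *AEN* stretches overlap an exon of at least 1 transcript of the gene, and the *MDM2* stretch overlaps none and lies inside the gene. A match is a run of letters only, and binding was not measured.

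Library totals ran from 12362101 to 19095828 counts. Markers of HEK293 cells summed to between 60.1 and 71.5 CPM (counts scaled by library size) in every library, with 5 of 6 detected well enough to test and *NEFM* at no more than 1 count. The markers of blood cells summed to at most 5.34 CPM, those of epithelial carcinoma lines to 7.68 to 16.3 CPM and those of fibroblasts to 37.9 to 60.9 CPM, with 1, 3 and 3 of 6 markers tested. The fibroblast sum was lower in all libraries of the other 5 groups than with DMSO (59.0 to 60.9 CPM), at 38.7 to 39.8 CPM for rapamycin and 37.9 to 46.3 for full-length Csy4. It was 48.1 to 52.7 CPM for split Csy4 without the trigger, 46.6 to 54.3 for split Csy4 with it and 51.9 to 56.5 for grazoprevir alone. The markers in the sum did not all move alike. With full-length Csy4 against DMSO, *COL3A1* and *LUM* were called lower, while *COL1A1* was not called, at 20.1 CPM against 17.7 with DMSO. The epithelial carcinoma sum was 15.7 to 15.9 CPM with DMSO and lower in 4 groups, at 7.68 to 8.61 CPM for rapamycin, 11.3 to 13.2 for full-length Csy4, 13.8 to 14.5 for split Csy4 without the trigger and 13 to 13.8 for split Csy4 with it, while grazoprevir alone (13.8 to 16.3 CPM) overlapped with DMSO, and the part of either list in the results below was not tested. In bulk RNA, fewer cells with a transcript and less of it per cell cannot be told apart.

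With full-length Csy4 all 10 members were higher than with DMSO, at an adjusted p below 0.05 in edgeR's quasi-likelihood test, while 22.9% of all tested genes were called higher and 24% lower. The median log2 fold change of the members was 1.2, against -0.01 over all tested genes. Rapamycin, in cells not labelled as transfected, raised 9 of the 10, with a median of 1.04 (0.02 over all genes) and 17.2% of all genes called higher. Untriggered split Csy4 raised 6 (14.8% of all genes higher) with a median of 0.26, and triggered split Csy4 raised 8 (16% of all genes higher) with a median of 0.50, both against DMSO. These 4 comparisons share the DMSO libraries. All 3 full-length libraries lay above all 3 DMSO libraries for 10 of 10 members, a pattern that 26.5% of all genes showed.

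**Figure D1:**
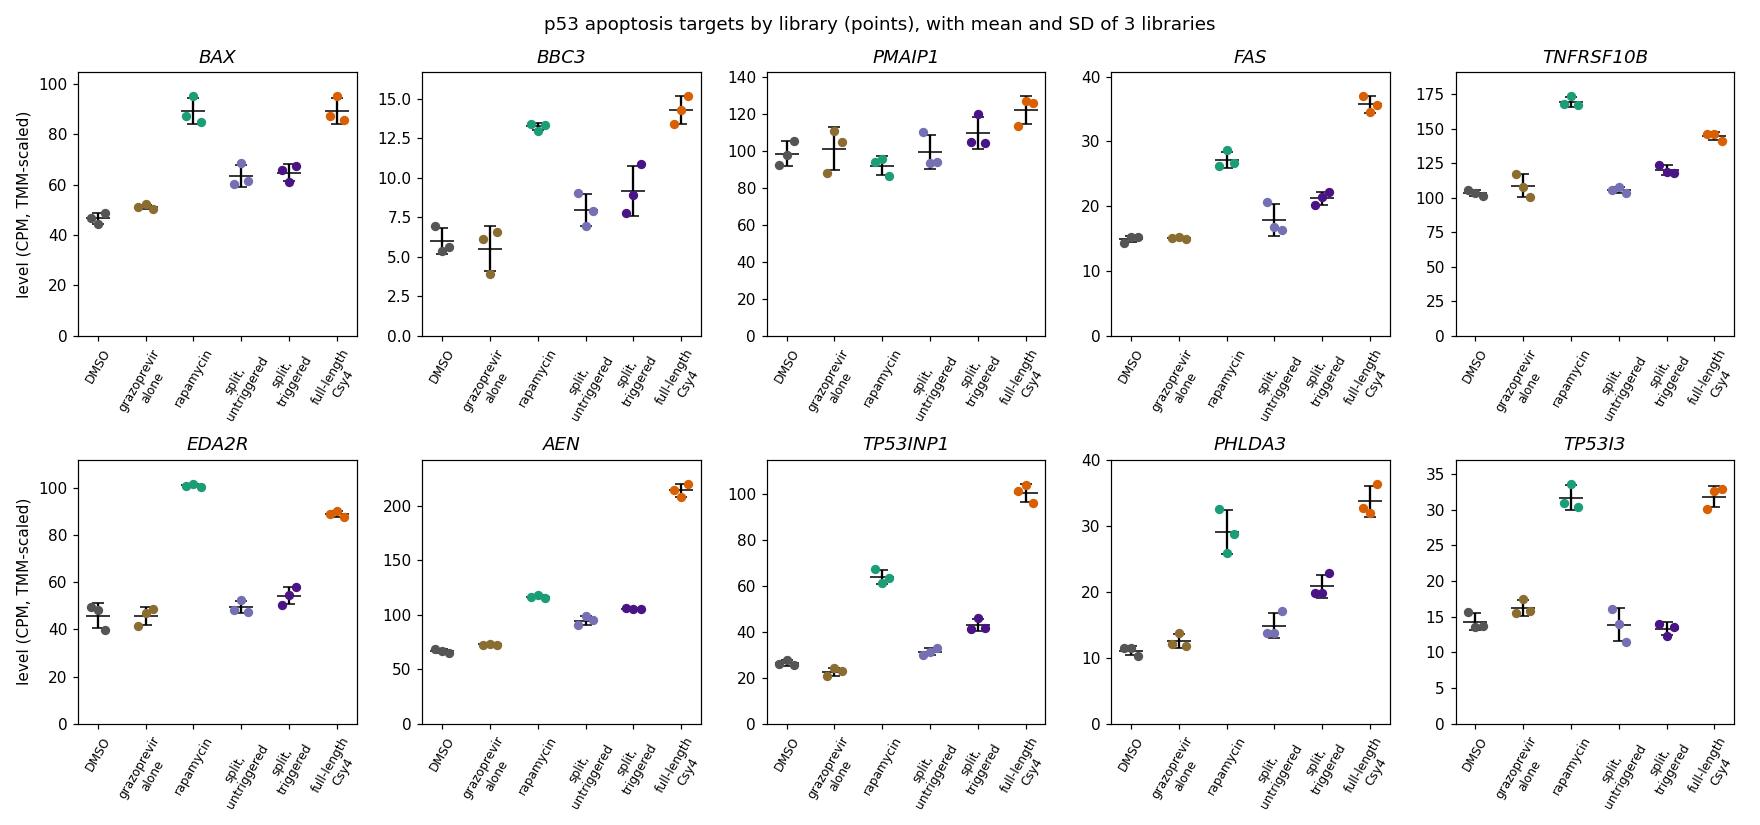
Level of each member in CPM (y axis, TMM-scaled, starting at 0) in the 6 groups (x axis), with a point for each library and a bar for the mean with its SD over 3 libraries. Rapamycin and full-length Csy4 stand above DMSO for every member except *PMAIP1*, where rapamycin (92.1 CPM) sits near DMSO (98.6 CPM).

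Among the mitochondrial members, *BAX* (chr19:48954875-48961798, plus strand of GRCh38.p14 in RefSeq) encodes the protein that forms pores in the outer mitochondrial membrane. Its level was 46.8, 44.3 and 48.6 CPM with DMSO, 60.3, 68.6 and 61.4 CPM with untriggered split Csy4, 65.8, 61.0 and 67.4 CPM with triggered split Csy4 and 87.4, 95.2 and 85.5 CPM with full-length Csy4. Rapamycin gave 87.4, 95.2 and 85.0 CPM, on 1200, 1438 and 1317 counts where full-length Csy4 had 1165, 1416 and 1357, and grazoprevir alone 51.0, 52.1 and 50.2 CPM. The libraries of *BAX* fall into 3 tiers that do not overlap, with the untransfected DMSO and grazoprevir libraries lowest, the split libraries between and the full-length and rapamycin libraries highest. Against DMSO the log2 fold change of *BAX* was 0.94 ± 0.058 (SE) with full-length Csy4 (adjusted p = 3.25e-24), 0.94 ± 0.058 with rapamycin (7.75e-24), 0.44 ± 0.06 with untriggered (6.56e-09) and 0.48 ± 0.06 with triggered split Csy4 (6.45e-10). Triggered and untriggered split Csy4 differed by 0.03 in *BAX*, with an approximate 95% interval of -0.08 to 0.15 (adjusted p = 0.947).

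*BBC3* (chr19:47220824-47232860, minus strand) encodes PUMA, a BH3-only protein that frees BAX from its inhibitors. It was the least abundant member per length, at 1.88 ± 0.26 CPM per kilobase of merged exon with DMSO (SD, n = 3). Its levels were 6.93, 5.38 and 5.63 CPM with DMSO, 9.02, 6.98 and 7.91 CPM with untriggered, 7.74, 8.94 and 10.9 CPM with triggered split Csy4, 13.4, 14.3 and 15.2 CPM with full-length Csy4 and 13.4, 13 and 13.4 CPM with rapamycin. The libraries of both split groups overlap with each other and stay below those of full-length Csy4 and rapamycin. *BBC3* rose 2.37-fold with full-length Csy4 (adjusted p = 3.59e-12) and 2.2-fold with rapamycin (3.28e-10). Its rise with untriggered split Csy4 (log2 0.40 ± 0.15, adjusted p = 0.0349) was not called with no filter on low counts, against a 1.2-fold change, or in fits that left out DMSO replicate 2 or 3 or untriggered split Csy4 replicate 1 or 3 (adjusted p up to 0.429).

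*PMAIP1* (chr18:59899996-59904305, plus strand) encodes NOXA, a BH3-only protein that binds MCL1, and it was the member with the highest level per length in every group (44.1 ± 2.9 CPM per kilobase with DMSO, 54.7 ± 3.4 with full-length Csy4). Its levels in CPM were 92.6, 97.7 and 106 CPM with DMSO, 94.2, 95.8 and 86.2 CPM with rapamycin and 114, 127 and 126 CPM with full-length Csy4. The full-length libraries lie above the DMSO libraries, and those of rapamycin overlap with DMSO. Untriggered (110, 93.6 and 94.2 CPM) and triggered split libraries (105, 120 and 104 CPM) also overlap with DMSO, and the triggered difference of 0.15 (adjusted p = 0.223) was called only with no filter or in a fit of the compared groups alone. Full-length Csy4 raised *PMAIP1* by 0.31 ± 0.089 on the log2 scale (adjusted p = 0.00875), a call that ended when tested against a 1.2-fold change (adjusted p = 0.331). With rapamycin the log2 fold change was -0.10, with an interval of -0.27 to 0.08 (adjusted p = 0.465). Full-length Csy4 set directly against rapamycin was higher in *PMAIP1* by 0.41 ± 0.09 (adjusted p = 0.00143), a call lost against a 1.2-fold change (0.0773). Per kilobase of merged exon, the order of the other members with DMSO was *TNFRSF10B* (20 CPM), *BAX* (18), *EDA2R* (12.8), *AEN* (11.1), *TP53I3* (6.19), *TP53INP1* (4.63), *PHLDA3* (3.53 ± 0.23) and *FAS* (3.51 ± 0.12), with the last 2 not apart beyond their spread. With full-length Csy4 *AEN* stood second, at 35.6 ± 1.0 CPM per kilobase.

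Of the receptors, *FAS* (chr10:88964050-89017059, plus strand) encodes CD95, the receptor of FAS ligand. It stood at 14.3, 15.2 and 15.2 CPM with DMSO, 15.2, 15.2 and 14.9 CPM with grazoprevir alone, 20.7, 16.7 and 16.3 CPM with untriggered and 20.1, 21.4 and 22.1 CPM with triggered split Csy4. Rapamycin gave 26.2, 28.6 and 26.7 CPM and full-length Csy4 37.0, 34.5 and 35.6 CPM. Full-length Csy4 was highest with no overlap, and 1 untriggered library reached the range of the triggered ones. The rise of *FAS* was 1.26 ± 0.088 on the log2 scale with full-length Csy4 (adjusted p = 2.52e-21) and 0.87 ± 0.09 with rapamycin (6.36e-13), and the direct difference of 0.39 ± 0.082 was called (4.39e-05) except against a 1.2-fold change (0.0766). The rise with untriggered split Csy4 was small (0.26 ± 0.095, adjusted p = 0.0285) and was not called with no filter, against a 1.2-fold change, or in fits that left out DMSO replicate 1 or untriggered split Csy4 replicate 1 (adjusted p up to 0.884). On the opposite strand, exons of *ACTA2*, a smooth muscle actin, share 380 bases or 8.94% of the merged exons of *FAS*, and no strand setting of the counting is given in the sources used here. *ACTA2* rose by 2.03 ± 0.14 with full-length Csy4 and by 2.37 ± 0.14 with rapamycin, on 2450 counts over all libraries against 5832 for *FAS*, and its part in the *FAS* values was not tested. Both genes thus rose against DMSO in these 2 groups. In the direct comparison of full-length Csy4 with rapamycin, added after the data were seen, *ACTA2* was at -0.35 ± 0.12 (adjusted p = 0.0101) and *FAS* at 0.39 ± 0.082. What the overlap adds to any of these differences was not tested.

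*TNFRSF10B* (chr8:23020133-23069031, minus strand) encodes DR5, a receptor for the death ligand TRAIL. Its levels were 105, 103 and 101 CPM with DMSO, 106, 108 and 104 CPM with untriggered and 124, 118 and 118 CPM with triggered split Csy4. Full-length Csy4 gave 146, 146 and 141 CPM and rapamycin 168, 174 and 167 CPM. Rapamycin lies above full-length Csy4, the reverse of the order in *FAS*. The log2 fold change against DMSO was 0.48 ± 0.045 with full-length Csy4 (adjusted p = 2.31e-15) and 0.71 ± 0.045 with rapamycin (1.74e-23), and the full-length libraries were lower than the rapamycin libraries by a called difference of -0.23 ± 0.044 (7.6e-06). That difference kept its direction in all 13 alternatives and lost its call against a 1.2-fold change. Untriggered split Csy4 left *TNFRSF10B* at 0.03, with an interval of -0.06 to 0.13 (adjusted p = 0.632).

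*EDA2R* (chrX:66595637-66639269, minus strand) encodes a receptor of ectodysplasin A2. It was at 49.6, 48.3 and 39.8 CPM with DMSO, 48.2, 52.4 and 47.6 CPM with untriggered split Csy4, 50.5, 54.7 and 58.1 CPM with triggered split Csy4, 89.0, 90.5 and 88.1 CPM with full-length Csy4 and 101, 102 and 101 CPM with rapamycin. Rapamycin was again highest, and the untriggered libraries overlap with DMSO. *EDA2R* rose by 0.95 ± 0.061 with full-length Csy4 (adjusted p = 1.41e-22) and by 1.14 ± 0.06 with rapamycin (1.57e-26), and the 2 differed by -0.18 ± 0.057 (0.00579), a call lost with library totals alone and against a 1.2-fold change. Its rise with triggered split Csy4 against DMSO (0.24 ± 0.0645, adjusted p = 0.00227) lost its call against a 1.2-fold change and with DMSO replicate 3, the lowest of the DMSO libraries, left out, where it was 0.15.

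With full-length Csy4 the 3 largest changes were those of the effectors *TP53INP1*, *AEN* and *PHLDA3*. *TP53INP1* (chr8:94925972-94949378, minus strand) encodes a nuclear protein that promotes phosphorylation of p53 and takes part in autophagy and cell death. It stood at 25.8, 27.7 and 25.4 CPM with DMSO, 20.7, 24.2 and 22.8 CPM with grazoprevir alone, 29.6, 31.1 and 32.8 CPM with untriggered and 41.2, 46.1 and 41.6 CPM with triggered split Csy4. Rapamycin gave 67.3, 61.3 and 63.3 CPM and full-length Csy4 101, 104 and 96.1 CPM. The 6 groups of *TP53INP1* do not overlap with one another in any library. It rose 3.82-fold with full-length Csy4 (log2 1.93 ± 0.064, adjusted p = 3.53e-40), 2.43-fold with rapamycin (4.59e-28), 1.63-fold with triggered (1.6e-13) and 1.19-fold with untriggered split Csy4 (0.00579). The last of these lost its call against a 1.2-fold change and without untriggered split Csy4 replicate 3 (adjusted p up to 0.978).

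*AEN* (chr15:88604683-88632281, plus strand) encodes an exonuclease that digests DNA in dying cells. Its levels were 68.3, 67.0 and 64.4 CPM with DMSO, 72.5, 72.7 and 72.5 CPM with grazoprevir alone, 90.1, 98.5 and 94.8 CPM with untriggered and 106, 105 and 105 CPM with triggered split Csy4. They were 116, 118 and 116 CPM with rapamycin and 214, 208 and 220 CPM with full-length Csy4. The groups of *AEN* do not overlap either, and the step from rapamycin to full-length Csy4 is the widest. Its log2 fold change was 1.68 ± 0.045 with full-length Csy4 (adjusted p = 1.1e-46), 0.81 ± 0.046 with rapamycin (1.98e-25), and 0.88 ± 0.043 between those groups (8.5e-30). With split Csy4 it was 0.50 ± 0.047 untriggered (2.69e-14) and 0.66 ± 0.047 triggered (4.84e-20).

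*PHLDA3* (chr1:201464278-201469188, minus strand) encodes a small lipid-binding protein that competes with the survival kinase AKT for the membrane. Its levels were 11.5, 11.5 and 10.2 CPM with DMSO, 13.8, 13.8 and 17.0 CPM with untriggered, 19.9, 19.7 and 22.8 CPM with triggered split Csy4, 32.5, 25.8 and 28.8 CPM with rapamycin and 32.8, 32.0 and 36.4 CPM with full-length Csy4. Full-length and rapamycin libraries overlap, and the split groups lie below them. *PHLDA3* rose 3.04-fold with full-length Csy4 (adjusted p = 3.2e-24) and 2.61-fold with rapamycin (4.04e-20). With untriggered split Csy4 it rose by 0.43 ± 0.11 (adjusted p = 0.00154), a call lost against a 1.2-fold change and without untriggered replicate 3 (adjusted p up to 0.22), and with triggered split Csy4 by 0.91 ± 0.1 (4.66e-11). The direct difference between full-length Csy4 and rapamycin, 0.22 ± 0.088 (adjusted p = 0.0343), lost its call in 5 of 13 alternatives: with no filter, against a 1.2-fold change and without rapamycin replicate B, rapamycin replicate C or full-length Csy4 replicate 3. An annotated RNA, AC096677.2, shares 598 bases (19.1%) of the merged exons of *PHLDA3* on the same strand and is not among the symbols of the table.

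*TP53I3* (chr2:24077433-24084834, minus strand) encodes PIG3, a quinone oxidoreductase relative linked to reactive oxygen. It was at 15.7, 13.6 and 13.7 CPM with DMSO, 15.4, 17.5 and 15.8 CPM with grazoprevir alone, 16.1, 14 and 11.5 CPM with untriggered and 14, 12.3 and 13.6 CPM with triggered split Csy4. Full-length Csy4 gave 30.1, 32.6 and 32.8 CPM and rapamycin 30.9, 33.6 and 30.3 CPM. *TP53I3* shows 2 levels, a high one with full-length Csy4 and rapamycin and a low one in the other groups. *TP53I3* rose by 1.15 ± 0.094 with full-length Csy4 (adjusted p = 6.99e-18) and by 1.14 ± 0.094 with rapamycin (3.24e-17), which differed from each other by 0.01 (interval -0.16 to 0.18, adjusted p = 0.938). Split Csy4 gave -0.06 untriggered (interval -0.26 to 0.15, adjusted p = 0.735) and -0.11 triggered (interval -0.32 to 0.10, adjusted p = 0.48).

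**Figure D2:**
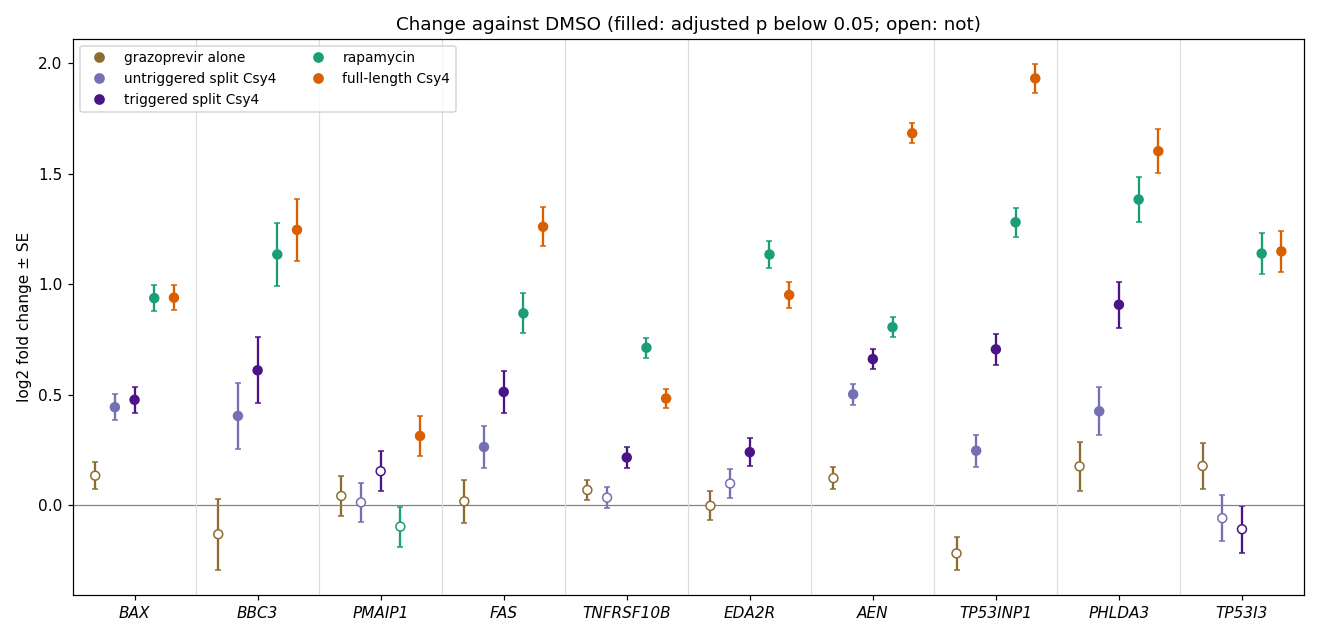
Log2 fold change of each member against DMSO (y axis, with SE) for 5 conditions, filled where the adjusted p was below 0.05. *TP53INP1* is highest with full-length Csy4 (1.93), while *TNFRSF10B* and *EDA2R* are higher with rapamycin (0.71 and 1.14) than with full-length Csy4 (0.48 and 0.95).

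Grazoprevir alone was compared with DMSO to give the background of the trigger. No member was called, beside 0.2% of all genes, and DESeq2 called none either. At an unadjusted edgeR p below 0.05, 2 members were higher (*AEN* at 0.12 ± 0.048 and *BAX* at 0.13 ± 0.061) and 1 lower (*TP53INP1* at -0.22 ± 0.076), with adjusted p-values of 0.403, 0.517 and 0.283. In these 3 members, and higher in *PHLDA3* (0.18 ± 0.11, adjusted p = 0.711), the 2 groups did not overlap, while 7.14% of all genes were separated upward and 6.26% downward. These members were picked out after their values were seen.

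Triggered against untriggered split Csy4 held transfection and construct constant and changed the drug. *TP53INP1* rose by 0.46 ± 0.07 (adjusted p = 1.52e-05) and *PHLDA3* by 0.48 ± 0.1 (0.00823), 2 of 10 members where 0.195% of all genes were called higher. *TNFRSF10B* (0.18 ± 0.046, adjusted p = 0.072) and *AEN* (0.16 ± 0.046, 0.185) missed the threshold although their groups did not overlap, as in 4 members and 6.69% of all genes. *TNFRSF10B* passed with library totals alone and in a fit of these 2 groups. The median over the members was 0.17 (-0.00 over all genes). The *PHLDA3* call was lost without untriggered split Csy4 replicate 1 or 2 or triggered split Csy4 replicate 3, and both calls were lost against a 1.2-fold change.

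The interaction sets this difference against the one that grazoprevir made in untransfected cells. *TP53INP1* was the only member called: untransfected cells had 26.3 ± 1.2 CPM with DMSO and 22.5 ± 1.8 with grazoprevir, and split Csy4 cells had 31.2 ± 1.6 and 42.9 ± 2.7 CPM (SD, n = 3). The difference of the responses was 0.68 ± 0.1 on the log2 scale (adjusted p = 4.69e-05), beside 0.351% of all genes called. For the other 9 members it lay between -0.23 and 0.34 with adjusted p-values of 0.531 or more, and for *PHLDA3* it was 0.31 (interval 0.01 to 0.60).

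Triggered split Csy4 against grazoprevir alone kept the drug in both groups. Of the 10 members 8 were higher (16.2% of all genes) and *TP53I3* was lower (16% of all genes), with a median of 0.42. The largest rises were in *TP53INP1* (0.92 ± 0.073, adjusted p = 8.12e-18), *BBC3* (0.74 ± 0.15, 7.7e-05) and *PHLDA3* (0.73 ± 0.1, 2.77e-08). *BBC3* stood at 6.11, 3.88 and 6.57 CPM with grazoprevir alone, the middle library on 60 counts. Its rise kept its call in all 14 alternatives, over which it ran from 0.54 to 0.90. *TP53I3* was at 0.82 times its level with grazoprevir alone (-0.29 ± 0.11, adjusted p = 0.0304). That call was lost against a 1.2-fold change and without grazoprevir replicate 2 or triggered split Csy4 replicate 2 or 3. *TNFRSF10B* (0.15 ± 0.046, 0.00894) lost its call under the same 1.2-fold test and without grazoprevir replicate 3 or triggered split Csy4 replicate 1. *PMAIP1* was the remaining member, at 0.11 (interval -0.07 to 0.29, adjusted p = 0.395).

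Full-length Csy4 was then set directly against each split group, all of them transfected. The construct differs in both comparisons. Full-length cells had DMSO where triggered split cells had grazoprevir, so construct, enzyme and drug cannot be told apart in that comparison. All 10 members were higher than in untriggered split cells (13.1% of all genes higher), with a median of 0.93, and 9 were higher than in triggered split cells (10.1% of all genes higher), with a median of 0.70. Against triggered split Csy4 the differences were largest in *TP53I3* (1.26 ± 0.098, adjusted p = 2.88e-18), *TP53INP1* (1.23 ± 0.062, 1.67e-28) and *AEN* (1.02 ± 0.044, 6.51e-33) and, among the 9 called members, smallest in *TNFRSF10B* (0.27 ± 0.045, 2.43e-06). The *TNFRSF10B* call was lost against a 1.2-fold change (adjusted p = 0.985). *PMAIP1* was not called against triggered split Csy4 (0.16, interval -0.02 to 0.33, adjusted p = 0.24) except with no filter or when only those groups were fitted, and its difference from untriggered split Csy4 (0.30 ± 0.089, 0.0203) lost its call against a 1.2-fold change and without full-length replicate 2 or 3 or untriggered split Csy4 replicate 2 or 3.

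Full-length Csy4 against rapamycin was added after the data were seen. Of the members *AEN*, *TP53INP1*, *PMAIP1*, *FAS* and *PHLDA3* were higher with full-length Csy4 and *TNFRSF10B* and *EDA2R* were lower, where 23.2% of all genes were called higher and 24% lower. For the other 3 the differences were 0.00 for *BAX* (interval -0.11 to 0.11), 0.11 for *BBC3* (-0.14 to 0.36) and 0.01 for *TP53I3*.

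**Figure D3:**
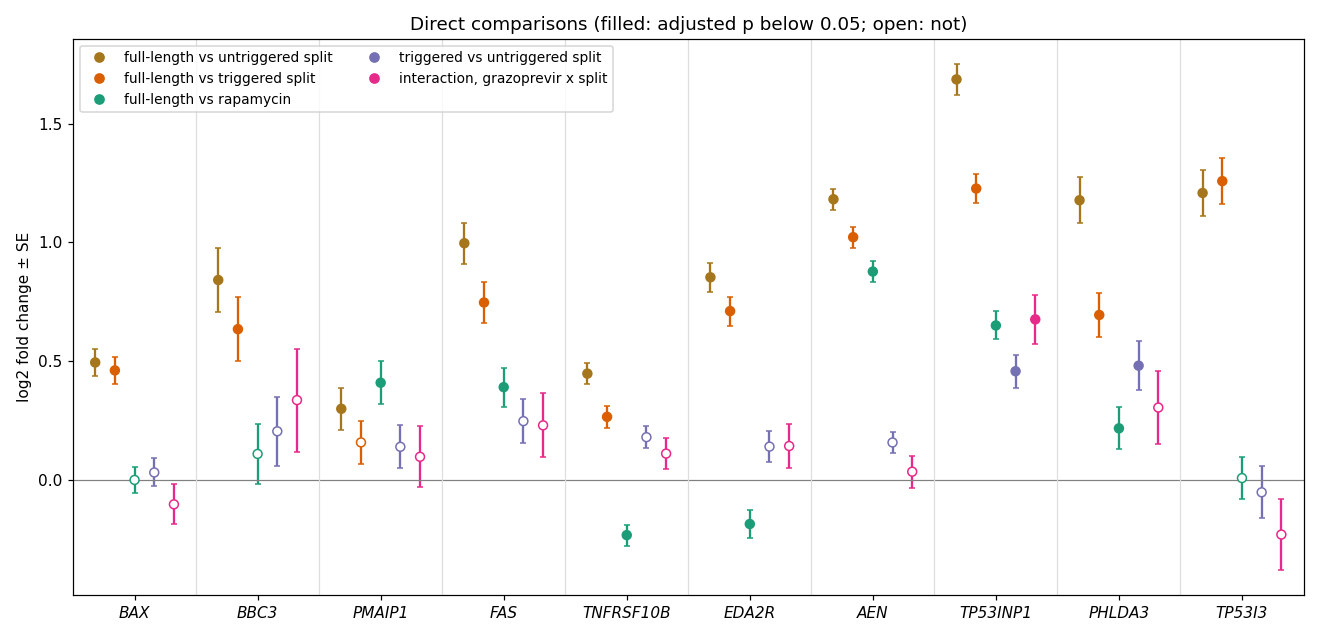
Log2 difference between 2 groups for each member (y axis, with SE), and the interaction of grazoprevir with split Csy4, filled where the adjusted p was below 0.05. Full-length Csy4 lies above both split groups for *TP53I3* by 1.21 and 1.26, and the interaction is filled in 1 member, *TP53INP1* (0.68).

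The members' log2 CPM across the 18 libraries were alike in pairs that left out *PMAIP1* (Pearson r of 0.69 to 0.97 over 36 pairs) and less so in the 9 pairs with it (0.00 to 0.54). The libraries share their group structure, so these values describe that structure. The genes outside the members whose pattern was most like the members' mean were *BTG2*, an antiproliferative p53 target (r = 0.988 over 18 libraries), *MDM2* (0.987), *XPC*, a DNA damage recognition protein (0.971), *PPM1D*, a phosphatase that turns p53 signalling off (0.966), and *INPP5D*, an inositol phosphatase (0.965).

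*MDM2* rose in all 4 comparisons with DMSO, by 2.06 ± 0.036 with full-length Csy4, 1.80 ± 0.036 with rapamycin, 0.35 ± 0.036 with untriggered and 0.60 ± 0.036 with triggered split Csy4. *MDM4*, its partner in holding p53 low, rose by 0.35 ± 0.043 with full-length Csy4 and 0.47 ± 0.043 with rapamycin. *TP73*, a p53 relative, was at 0.13 ± 0.12 with full-length Csy4 (adjusted p = 0.399), and *TP63* had at most 1 count in a library.

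In a list of 25 other p53 targets of arrest, repair and metabolism, full-length Csy4 raised 20 and lowered 2 (median 1.06), where 22.9% of all genes rose and 24% fell. This list too was chosen with earlier results of these data known, and it was not tested as a set. With rapamycin 21 rose (median 0.69, 17.2% of all genes). Untriggered split Csy4 raised 11 and lowered 1 (median 0.16), where 14.8% of all genes were called higher and 14.1% lower. Triggered split Csy4 raised 13 and lowered 1 (median 0.28), where 16% of all genes were called higher and 15.6% lower. With full-length Csy4 the largest were *GDF15*, a stress cytokine (5.57 ± 0.31, from 0.228 to 11.8 CPM), *GADD45A*, a growth arrest protein (2.10 ± 0.067), and *MDM2*. In the triggered against untriggered comparison 5 of the 25 rose (0.195% of all genes), with *CDKN1A*, the p21 cell cycle inhibitor, at 0.41 ± 0.065 and *PPM1D* at 0.37 ± 0.056, and *BTG2* at 0.33 ± 0.062.

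Apoptosis genes outside the members had medians nearer 0, and their counts with full-length Csy4 stand beside 22.9% of all genes higher and 24% lower. Among 12 tested genes of the BCL2 family, full-length Csy4 raised 2 and lowered 2 (median 0.01): the pore former *BAK1* was at 0.51 ± 0.068, the survival protein *BCL2L2* at -0.42 ± 0.079 and the BH3-only *BMF* at -0.38 ± 0.14. Of 11 death receptors, ligands and adaptors 5 rose and 2 fell (median 0.25), with the TRAIL decoy receptor *TNFRSF10D* at 0.60 ± 0.079, *EDA*, the ligand gene of *EDA2R*, at -0.60 ± 0.089 and the adaptor *TRADD* at -0.59 ± 0.22. *FASLG*, the ligand of FAS, had no counts, and *TNFSF10*, which encodes TRAIL, had at most 3 counts in a library. Of 19 caspase, apoptosome and inhibitor genes 8 rose and 2 fell (median 0.12), with *PIDD1*, a p53-induced activator of caspase-2 complexes, at 0.95 ± 0.089 and *APAF1*, the apoptosome scaffold, at 0.61 ± 0.055, while the mitochondrial flavoprotein *AIFM1* was at -0.31 ± 0.042. With rapamycin 1 gene of the BCL2 family was called, the BH3-only *HRK* at -0.42 ± 0.11. In each of the receptor and caspase lists 3 rose and 2 fell. Of the receptor list *CFLAR* was at 0.55 ± 0.073, *EDA* at -0.40 ± 0.088 and *TNFRSF10D* at 0.40 ± 0.081. Of the caspase list *PIDD1* was at 1.11 ± 0.088, *AIFM1* at -0.43 ± 0.043 and *CASP2* at 0.30 ± 0.043. The rapamycin counts stand beside 17.2% of all genes called higher and 16% called lower.

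**Figure D4:**
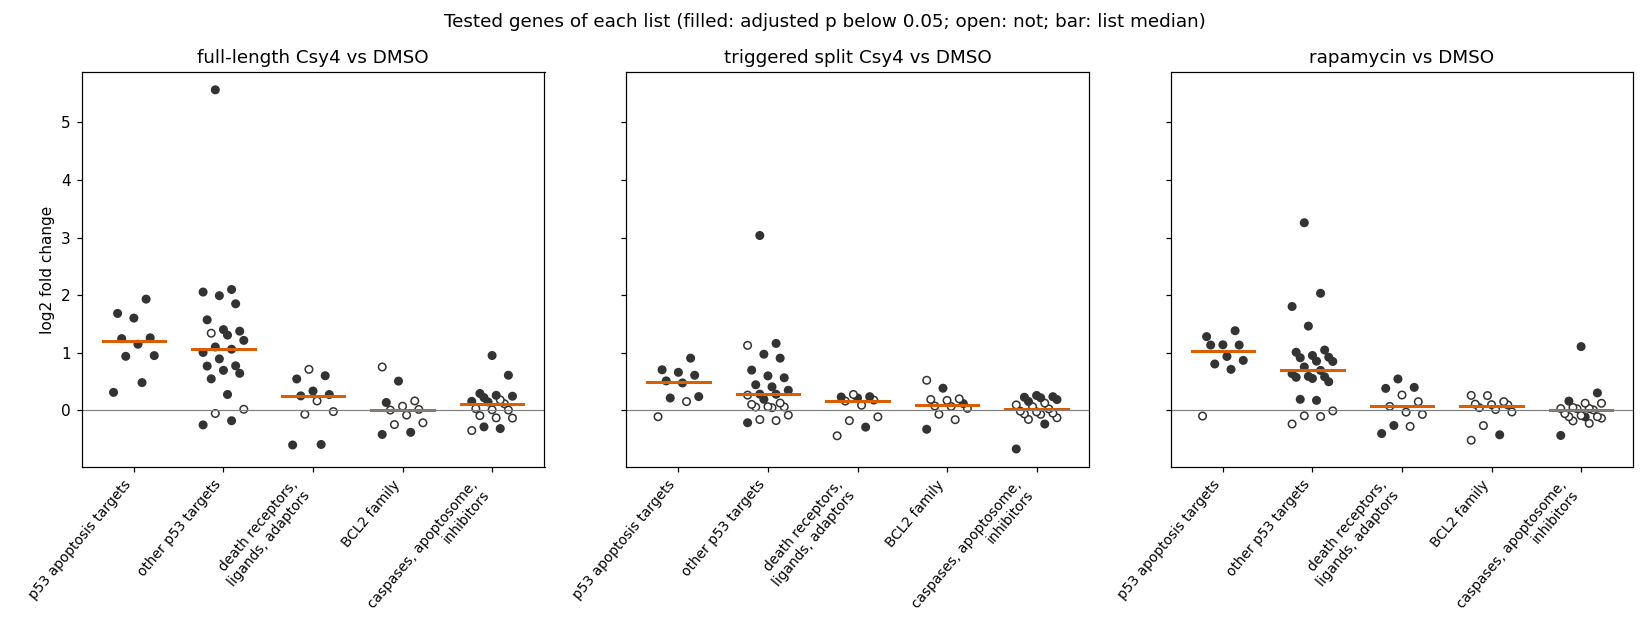
Log2 fold change against DMSO (y axis) of the tested genes in 5 lists (x axis) with full-length Csy4, triggered split Csy4 and rapamycin, filled where the adjusted p was below 0.05, with a bar at each list's median. With full-length Csy4 the medians are 1.2 for the members and 1.06 for the other p53 targets, and 0.25, 0.01 and 0.12 for the remaining lists.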

How the data were processed

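The authors deposited 1 table of raw counts per gene symbol, which was used as given. The labels' protocols give TRIzol extraction, oligo(dT) selection and random priming. Per the submitters' processing notes, HTSeq 0.6.1 and HISAT2 2.2.1 were used with hg38, besides cutadapt 1.9.1 and DESeq2 1.44.0, and the annotation and strand setting are not given in the sources used here. The 3 rapamycin columns share 1 header, so these libraries have letters (A, B, C) and no number.

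Genes were kept by filterByExpr, scaled by TMM factors and fitted in edgeR 4.0.16 (R 4.3.3) with 6 group means over all 18 libraries, robust quasi-likelihood and Benjamini-Hochberg adjustment over 17966 genes, called below 0.05. The SE was taken as the absolute log2 fold change over the root of F, and intervals are 1.96 SE either way, both approximate. Levels per kilobase use merged GENCODE 29 exons. Longest transcripts of the members were searched in GENCODE 29 with BLAST 2.17.0 (at least 95% identity over 100 bases), and only AC096677.2 matched, with *PHLDA3*. Pairs of libraries of a group differed by 1.92 to 6.24 times the counting noise (chi-square per gene), so none was counted as a duplicate. The highest values, 6.24 and 4.63, were those of replicate 1 of grazoprevir alone with the other libraries of its group. All other pairs were at 3.27 or less. Depth limits precision most for *BBC3*, at 60 to 241 counts a library.

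The members and lists were chosen with earlier results of these data known. Named genes are the members, *MDM2*, *MDM4*, *TP63*, *TP73*, up to 3 called genes with the largest change per list and comparison at 1 CPM or more, and the 5 genes most like the members' mean at a mean of 5 CPM or more (log2 CPM with a prior count of 2). A further gene named by this rule is not reported here. Alternatives were DESeq2 1.42.0, a replicate block, a fit restricted to the compared groups, median-of-ratios factors, library totals alone, no filter on low counts, at least 1 CPM in 3 libraries, a threshold of 1.2-fold in the test, and omission of each library. The comparison of full-length Csy4 with rapamycin was added after the data were seen. Replicate numbers were not taken as pairs, since in no comparison were all 3 correlations of same-numbered libraries' deviations over 0.1. They ran from -0.13 to 0.23 over 10136 genes, with the highest, 0.23 and 0.18, for replicates 1 and 2 of grazoprevir alone and DMSO.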

Additional observations from a re-analysis of the deposited data

Results flagged for a closer look

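The response of *TP53INP1* to grazoprevir differed between split Csy4 cells and untransfected cells by 0.68 on the log2 scale in a test of that difference (edgeR, adjusted p = 4.69e-05). All 3 triggered libraries lay above all 3 untriggered ones, and all 3 libraries with grazoprevir alone lay below all 3 with DMSO. The call held in 19 of 20 alternatives, over which the value ran from 0.62 to 0.73, and was lost against a 1.2-fold change (adjusted p = 0.0951).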

How the results depend on the processing

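Of 1580 recomputed log2 fold changes of members, 1503 kept their direction and side of the threshold, 49 lost a call, 6 gained one and 22 uncalled values changed sign. No called value changed direction. Against a 1.2-fold change the members called higher were 2 with untriggered split Csy4 against DMSO, 5 with triggered split Csy4 against grazoprevir alone, 0 with triggered against untriggered split Csy4, 0 in the interaction and 2 with full-length Csy4 against rapamycin, and those called lower were 0 in the second and 0 in the last of these. The 1.2-fold test also ended single calls in other comparisons. These were *PMAIP1* with full-length Csy4 against DMSO and against untriggered split Csy4, and *TNFRSF10B* with full-length against triggered split Csy4. With triggered split Csy4 against DMSO they were *TNFRSF10B* and *EDA2R*. With library totals alone, 1 member was lower with full-length Csy4 than with rapamycin. Leaving out 1 library gave 3 to 6 members higher with untriggered split Csy4 against DMSO (3 without untriggered replicate 3), 1 to 2 with triggered against untriggered split Csy4, and 0 to 1 lower with triggered split Csy4 against grazoprevir alone. The replicate block gave 10 members higher with full-length Csy4 against DMSO and changed no call of a member, and no paired analysis was possible for rapamycin because its columns carry no replicate numbers. With library totals alone 61.1% of all calls with full-length Csy4 against DMSO were higher, against 48.8% with TMM factors; the same shares were 67.8% and 46.7% against untriggered and 67.5% and 45.5% against triggered split Csy4, and 59.5% and 49.1% against rapamycin. Against a 1.2-fold change, 3647 of all genes were called where the main test called 8425 for full-length Csy4 against DMSO. The same counts were 812 and 5185 for untriggered and 1145 and 5677 for triggered split Csy4 against DMSO, 1160 and 5775 for triggered split Csy4 against grazoprevir alone, 6 and 36 between the split groups, 863 and 5024 for full-length against untriggered and 647 and 4008 against triggered split Csy4, 1406 and 5963 for rapamycin, 1 and 63 in the interaction and 3723 and 8480 for full-length Csy4 against rapamycin. For grazoprevir alone the main test called 36 genes, DESeq2 83, the block 66, library totals alone 54, a fit of the compared groups 7 and the 1.2-fold test 0. Leaving out 1 library gave 3 to 112 genes there, 14 to 141 in the interaction and 22 to 29 between the split groups.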
